A study of Homo sapiens with 12 samples.

Results

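The 7 genes described here are widely used readouts of YAP and of TGF-β signalling: CCN1, CCN2, ANKRD1, AMOTL2, AJUBA, SMAD7 and TGFB2. They were picked by symbol, with the older names CYR61 and CTGF accepted for CCN1 and CCN2, and all 7 were found among the 60583 genes of the count tables. Nascent RNA was profiled by TT-seq, which labels RNA as it is being made with a thiol-bearing uridine, then captures and sequences the labelled fragments. The cells were U2OS, a human osteosarcoma line, in 4 groups of 3 libraries. One pair of groups was U2OS transfected with a control siRNA (siCtrl) or with an siRNA against INTS11 (siINTS11). The other pair was U2OS-AsiSI, a derivative with AsiSI-ER, in which a bacterial restriction enzyme is joined to part of the oestrogen receptor. It was transfected in the same ways and given OHT, the ligand that sends the enzyme into the nucleus, for 1 h. RNA was taken 48 h after transfection. INTS11 carries the RNA-cutting activity of Integrator, which cleaves nascent RNA at RNA polymerase II. The labels give OHT for U2OS-AsiSI only, so line, nuclease and OHT cannot be told apart. Nothing in them says that replicates came from separate cultures, so p-values measure the spread between these libraries.

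YAP is a transcriptional co-activator that the Hippo kinases MST and LATS keep out of the nucleus. In the nucleus it binds TEAD proteins, often beside AP-1, and drives genes such as CCN1, CCN2 and ANKRD1. TGF-β ligands bind paired receptor kinases that phosphorylate SMAD2 and SMAD3, which enter the nucleus with SMAD4. Both pathways feed back on themselves: AMOTL2 and AJUBA act on YAP and on LATS, SMAD7 blocks the TGF-β receptors, and TGFB2 is itself a ligand. CCN2 responds to both. These genes respond to adhesion, stretch and serum in cultured mesenchymal cells.

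Libraries held 20704611 to 38065726 counts, and the smallest 3 totals on average were those of U2OS-AsiSI with siINTS11 (24.5, against 30.6 to 33.1 in the other groups, in units of 1e+06 counts). INTS11, the targeted gene, read 10.1, 8.88 and 10.1 CPM (counts scaled to 1e+06 per library) in U2OS siCtrl and 7.86, 7.07 and 7.19 CPM in U2OS siINTS11. It fell by 0.42 on the log2 scale there (SE 0.0873, edgeR adjusted p = 6.08e-05). In U2OS-AsiSI it read 9.64, 11 and 9.83 CPM with siCtrl and 9.01, 9.34 and 9.49 CPM with siINTS11, a log2 difference of -0.13 that did not pass (adjusted p = 0.172). The 3 U2OS-AsiSI libraries are therefore called by their siINTS11 label only. TT-seq reads new RNA, not the mature mRNA on which an siRNA acts. Of the osteoblast-lineage markers, RUNX2 (149 to 446 CPM), COL1A1 and SPARC were read in every library, while BGLAP was at 0 and SP7 and COL1A2 were below 0.5 CPM. RUNX2 fell with siINTS11 (-1.07 in U2OS-AsiSI and -0.84 in U2OS), whereas ALPL rose (1.31 and 1.47). Blood and muscle marker sums stayed below 0.3 CPM. The epithelial sum was higher with siINTS11 in both lines (13.6 to 14.9 against 10.3 to 11.4 CPM in U2OS, and 11.8 to 12.9 against 10.5 to 11.4 CPM in U2OS-AsiSI). The osteoblast sum was lower with siINTS11 in both lines (511 to 554 against 769 to 797 CPM in U2OS, and 432 to 464 against 622 to 647 CPM in U2OS-AsiSI), and the neural sum, nearly all RBFOX3, was higher (450.0 to 481 against 290.4 to 320.1 CPM, and 473 to 509 against 321 to 338 CPM). Their part in the results below was not tested. In bulk RNA, fewer cells of a type and less RNA per cell cannot be told apart.

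The promoter windows show what the members do and do not share before their RefSeq starts, some of which lie inside the counted gene. TEAD proteins recognise the letters GGAATG, which read CATTCC on the other strand. In the 250 bases before each RefSeq start (GRCh38.p14), these letters, on either strand, occurred in 11.9% of 35116 windows of the same length, and 3 or more times in 0.0826%. RefSeq windows matched 6 of the 7 members, the exception being CCN1. Of their 10 windows, 5 held the letters at least once, 1 each for CCN2, ANKRD1, AMOTL2, AJUBA and TGFB2. CCN2 held 3 copies, at 169, 104 and 95 bases before the start (first base of each), and ANKRD1 held 2, at 220 and 128 bases. TGFB2 held 1 at 185 bases and AMOTL2 held 1 at 69 bases before the more 3′ of its 2 starts. None of the 3 SMAD7 windows held them. All 3 lie inside the counted SMAD7 span (chr18:48919853-48952052, minus strand), so the bases just 5′ of that span were not searched. The AMOTL2 and AJUBA windows with the letters also lie wholly inside the counted spans. Neither the AP-1 letters TGAGTCA, or its complement TGACTCA (4.2% of all windows together), nor the SMAD palindrome GTCTAGAC (0.182%) occurred in any of the 10. A match is only a match of letters, and sequence outside these windows, also past the start, was not searched, so sites there would be missed. The 4 windows below are those with the TEAD letters of every member that held them except AJUBA, 5′ to 3′, ending at the base before the start, with the TEAD letters in capitals.
CCN2 (chr6:131951373-131951622, minus strand): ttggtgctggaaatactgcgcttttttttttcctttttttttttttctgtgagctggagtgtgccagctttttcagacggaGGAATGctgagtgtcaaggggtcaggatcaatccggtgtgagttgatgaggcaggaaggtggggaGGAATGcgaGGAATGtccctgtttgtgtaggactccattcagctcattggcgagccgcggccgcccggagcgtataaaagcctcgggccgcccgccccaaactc
ANKRD1 (chr10:90921088-90921337, minus strand): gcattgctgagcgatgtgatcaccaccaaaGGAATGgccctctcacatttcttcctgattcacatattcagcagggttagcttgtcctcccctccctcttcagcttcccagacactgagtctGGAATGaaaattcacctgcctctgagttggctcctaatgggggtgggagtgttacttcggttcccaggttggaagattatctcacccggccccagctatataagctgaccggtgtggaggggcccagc
AMOTL2 (chr3:134374448-134374697, minus strand): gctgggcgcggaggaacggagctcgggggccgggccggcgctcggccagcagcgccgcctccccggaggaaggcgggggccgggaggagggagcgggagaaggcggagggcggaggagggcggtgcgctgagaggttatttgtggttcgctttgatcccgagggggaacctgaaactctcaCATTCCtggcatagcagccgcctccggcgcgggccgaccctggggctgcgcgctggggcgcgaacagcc
TGFB2 (chr1:218345086-218345335, plus strand): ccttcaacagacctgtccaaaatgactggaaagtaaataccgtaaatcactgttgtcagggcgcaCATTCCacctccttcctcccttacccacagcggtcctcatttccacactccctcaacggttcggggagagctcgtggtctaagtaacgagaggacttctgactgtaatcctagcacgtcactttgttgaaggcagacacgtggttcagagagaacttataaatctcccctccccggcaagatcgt

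Per kilobase of gene, CCN1, CCN2 and ANKRD1 were the most strongly read members. In U2OS siCtrl the order of levels, in CPM per kb of span, was CCN1 at 24.2 ± 2.71 (SD, n = 3), ANKRD1 at 18.6 ± 1.81, CCN2 at 18.1 ± 2.10, AMOTL2 at 11.5 ± 0.902, TGFB2 at 8.76 ± 0.524, SMAD7 at 8.25 ± 0.561 and AJUBA at 0.134 ± 0.0176. The ranges of ANKRD1 and CCN2 overlapped there, and neither was the higher in every library. Those of TGFB2 and SMAD7 overlapped as well, although TGFB2 was the higher in every library. In U2OS-AsiSI siINTS11 the order was CCN1 at 26.3 ± 2.79, CCN2 at 23.6 ± 2.61, ANKRD1 at 16.2 ± 1.27, AMOTL2 at 12.8 ± 0.897, SMAD7 at 7.02 ± 0.117, TGFB2 at 4.95 ± 0.0514 and AJUBA at 0.150 ± 0.0311. The ranges of CCN1 and CCN2 overlapped there, with CCN1 the higher in every library, whereas TGFB2 had dropped below SMAD7 in every library. Whole gene spans were counted, introns included, so the long TGFB2 gene held the most reads of the 7 and the short CCN2 gene held fewer than all but AJUBA.

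**Figure D1:**
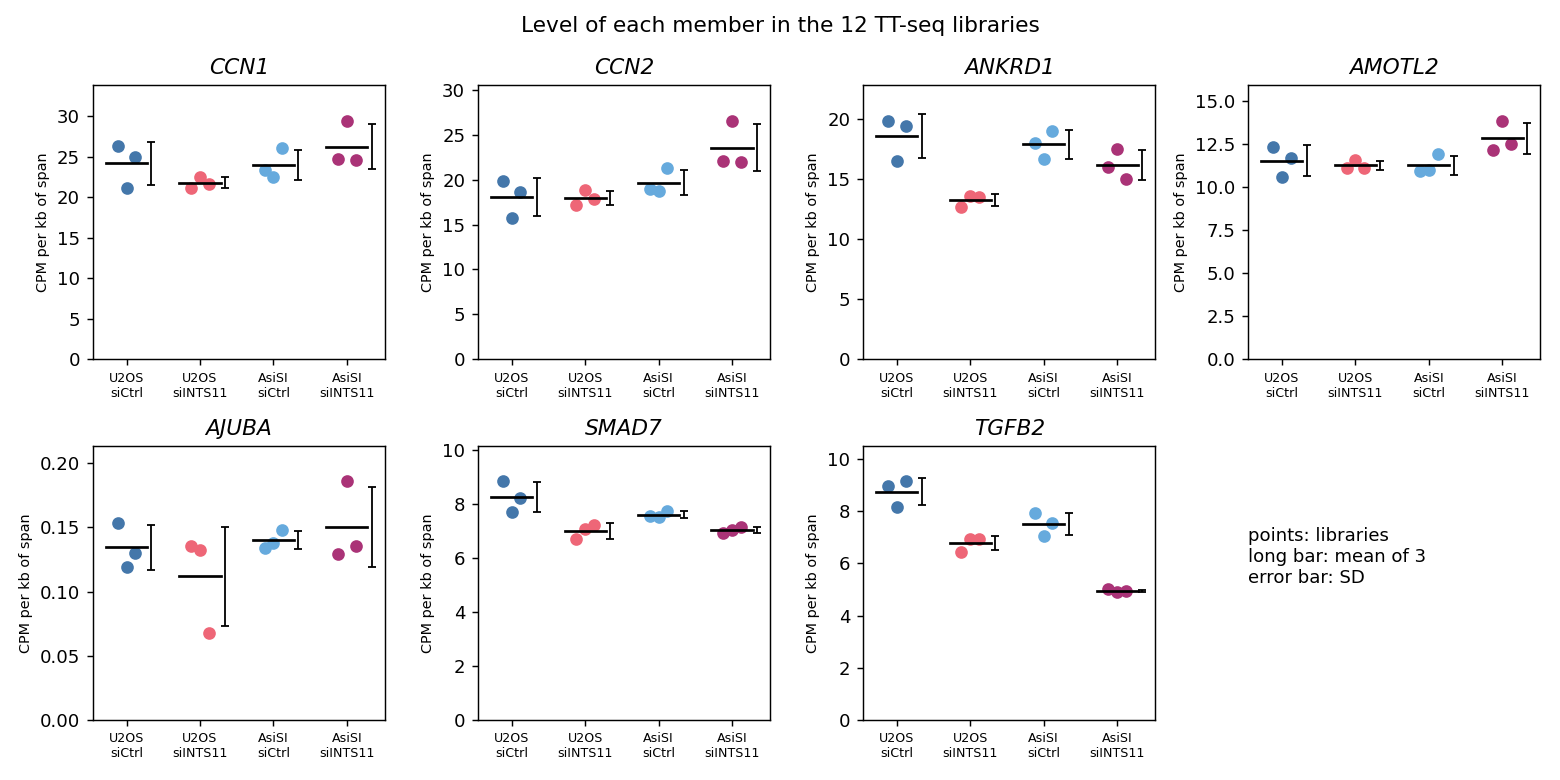
Level of each member, in CPM per kb of gene span on linear axes from 0, in the 4 groups; points are libraries, the long bar is the mean of 3 and the error bar its SD. TGFB2 steps down from U2OS siCtrl (8.76) to U2OS-AsiSI siINTS11 (4.95), ANKRD1 is lowest in U2OS siINTS11 (13.2), and CCN1, CCN2 and AMOTL2 have their highest points in U2OS-AsiSI siINTS11.

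The range of these values went with how densely a gene was read. In these tables no gene longer than 1 kb exceeded 0.987 reads per base in any library. CCN1 stood at 0.705 reads per base over the 12 libraries, CCN2 at 0.580, ANKRD1 at 0.484, AMOTL2 at 0.344, SMAD7 at 0.221, TGFB2 at 0.208 and AJUBA at 0.00392. CCN1 ranked 33rd, CCN2 48th and ANKRD1 61st in density among all genes tested. The raw count of CCN1 lay between 2136 and 2389 in all 12 libraries, a 1.12-fold range, while library totals spanned 1.84-fold. The raw count of CCN2 spanned 1.21-fold and that of AMOTL2 1.19-fold, against 2.59-fold for TGFB2. The slope of log raw count against log total, fitted within groups, was 0.182 for CCN1, 0.158 for CCN2, 0.349 for ANKRD1, 0.461 for AMOTL2, 0.764 for SMAD7 and 0.800 for TGFB2. The median slope was 1.04 over the 9948 genes with 0.01 to 0.1 reads per base and 0.171 over the 16 with 0.5 or more. With raw counts this flat, division by the library total raises CCN1 and CCN2 in small libraries and lowers them in large ones. How the limit arose was not tested here. Most results below are set beside the genes over 1 kb in the same class of reads per base.

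**Figure D2:**
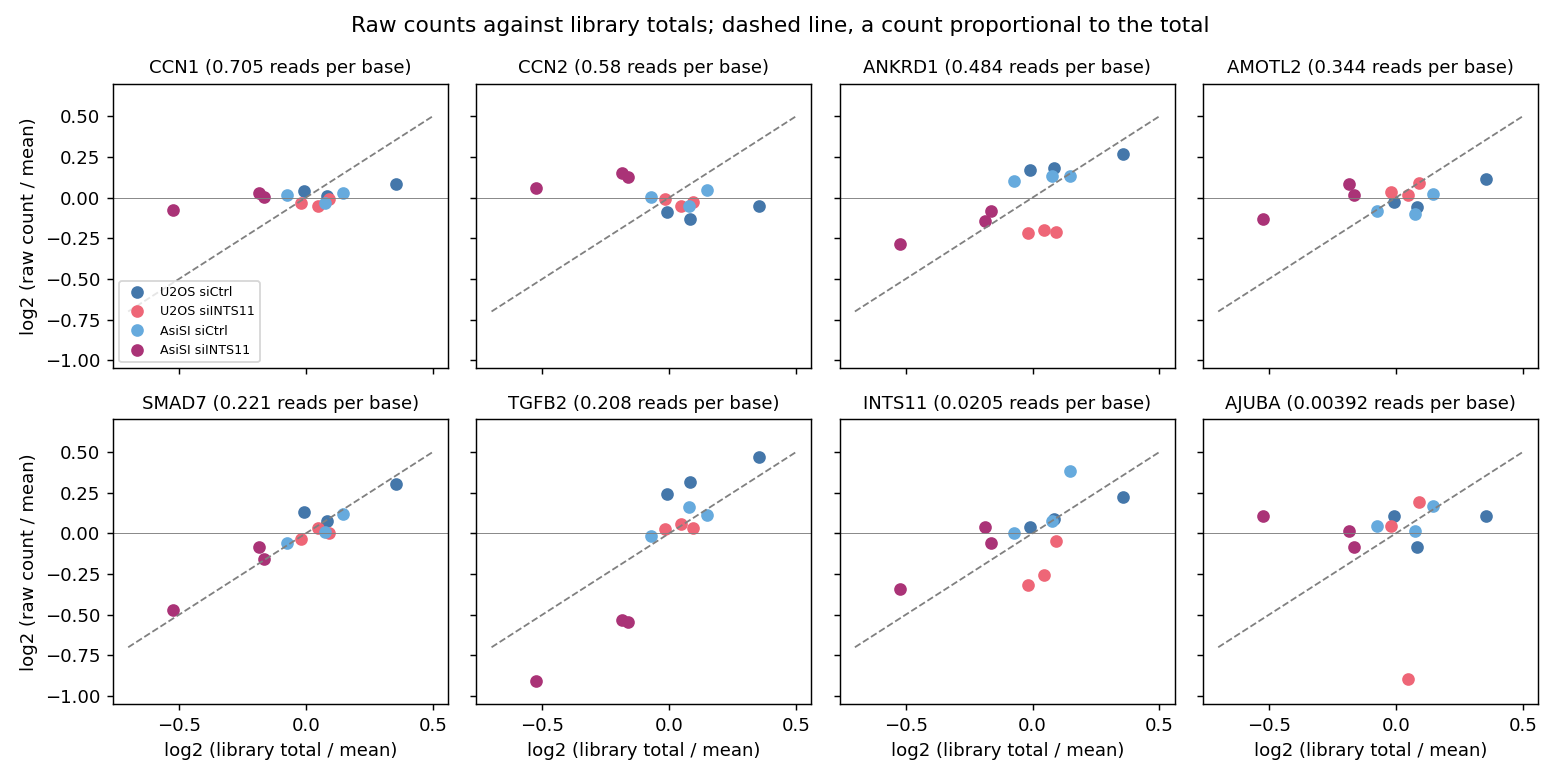
Raw count of each member and of INTS11 against the library total, both as log2 of the value over its mean in the 12 libraries, colour-coded by group; the dashed line marks a count proportional to the total. CCN1 stays within 2136 to 2389 counts across all totals, SMAD7 and TGFB2 run closer to the line than CCN1 and CCN2 (slopes within groups of 0.764 and 0.800 against 0.182 and 0.158), and the U2OS-AsiSI siINTS11 points of TGFB2 lie well under it.

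TGFB2, the ligand, gave the clearest change of the 7. TGFB2 (chr1:218345336-218444619, plus strand, 99.3 kb) read 890.1, 810.2 and 908.0 CPM in U2OS siCtrl and 640.9, 690.3 and 688 CPM in U2OS siINTS11. In U2OS-AsiSI it read 786, 701 and 748 CPM with siCtrl and 496, 486 and 490.2 CPM with siINTS11. All siINTS11 libraries lay below all siCtrl libraries of their line. TGFB2 fell by 0.40 on the log2 scale in U2OS (SE 0.0465, edgeR adjusted p = 6.62e-10), to 0.759 of the siCtrl level. In U2OS-AsiSI it fell by 0.60 (SE 0.0472, adjusted p = 1.94e-12), to 0.662 of the siCtrl level. Its raw counts were apart too, at 20470 to 23159 with siCtrl and 11044 to 14316 with siINTS11 in U2OS-AsiSI. Genes of 0.1 to 0.3 reads per base had a median change of 0.08 in U2OS-AsiSI and 0.03 in U2OS, and only 7 of the other 1239 in that class fell further than TGFB2 in U2OS-AsiSI, 31 in U2OS. Long genes were lower in general: the 142 genes of 50 to 150 kb in that density class had medians of -0.08 and -0.12. The fall of TGFB2 passed under every alternative run in both lines, from -0.64 to -0.55 in U2OS-AsiSI when libraries were left out singly. Library totals alone gave the smallest falls in U2OS, -0.20, and in U2OS-AsiSI, -0.41. TGFB2-OT1, which lies inside TGFB2 on its strand, held 0 reads, as did 92.2% of genes lying wholly within another gene on their strand. Of all 60583 genes, 28374 to 29834 had reads in a given library. TGFB2-AS1 overlaps the first 343 bases of TGFB2 on the other strand.

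SMAD7, the inhibitory SMAD that recruits ubiquitin ligases to the TGF-β receptors, was also lower. SMAD7 (chr18:48919853-48952052, minus strand, 32.2 kb) read 284, 248 and 264 CPM in U2OS siCtrl and 215, 227 and 233 CPM in U2OS siINTS11. The groups did not overlap. It fell by 0.27 on the log2 scale (SE 0.0449, adjusted p = 2.17e-06), and 76 of the other 1239 genes of its density class fell further. It was -0.07 under library totals alone (adjusted p = 0.106). In U2OS-AsiSI it read 242, 242 and 249 CPM with siCtrl and 222, 226 and 229.9 CPM with siINTS11. The groups were again apart, yet by little: a fall of 0.11 (SE 0.0437, adjusted p = 0.0303). That call was lost when any 1 library but siINTS11 replicate 3 was left out (adjusted p 0.0506 to 0.0979). It was also lost with TMM factors from sparse genes (adjusted p = 0.0785), with a minimum mean count of 50 (0.245) and after thinning (0.0551), and library totals alone turned it to a rise of 0.08 (0.0459). In its class 219 of the other 1239 genes lay lower.

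CCN1 and CCN2 encode secreted matricellular proteins that bind integrins and, for CCN2, promote matrix deposition. CCN1 (chr1:85580761-85583950, plus strand, 3.19 kb) read 84.2, 67.5 and 79.8 CPM in U2OS siCtrl and 67.4, 71.9 and 69.3 CPM in U2OS siINTS11. In U2OS-AsiSI it read 74.5, 71.8 and 83.1 CPM with siCtrl and 78.8, 94.0 and 78.5 CPM with siINTS11. Groups overlapped in both lines. The log2 difference was -0.18 in U2OS (SE 0.0614, adjusted p = 0.0175) and 0.13 in U2OS-AsiSI (SE 0.0592, adjusted p = 0.0443), where genes of 0.5 or more reads per base had medians of -0.10 and 0.20. CCN1 lay below all 15 others of that class in U2OS-AsiSI and below 14 of them in U2OS. The highest U2OS-AsiSI value came from the smallest library, siINTS11 replicate 2, whose raw CCN1 count, 2136, was the lowest of all 12. Without it the U2OS-AsiSI difference was 0.05 (adjusted p = 0.486), and the call was also lost without siCtrl replicate 1 (0.083) or 2 (0.226). The U2OS call was lost without siINTS11 replicate 1 (adjusted p = 0.05004) or 3 (0.061).

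CCN2 (chr6:131948176-131951372, minus strand, 3.2 kb) was the member with the largest rise. It read 60.7, 59.9 and 68.0 CPM in U2OS-AsiSI siCtrl and 70.7, 85.0 and 70.4 CPM in U2OS-AsiSI siINTS11, with no overlap. The rise was 0.26 on the log2 scale (SE 0.0598, adjusted p = 2.78e-04), 1.2-fold. Raw counts were higher as well, 1931 to 2057 against 1789 to 1912, although the siINTS11 libraries were smaller. The 16 genes of 0.5 or more reads per base rose by a median of 0.20 in this comparison, and 3 of them rose more than CCN2. Without siINTS11 replicate 2, the smallest library, the rise was 0.17 (adjusted p = 0.00663), and under library totals alone it was 0.45. In U2OS it read 63.5, 50.5 and 59.8 CPM with siCtrl and 55.0, 60.3 and 57.1 CPM with siINTS11, overlapping groups with a log2 difference of -0.04 (SE 0.0654, adjusted p = 0.639). Its raw counts in U2OS were higher with siINTS11 in all 3 libraries (1787 to 1842 against 1694 to 1786). Leaving out U2OS siCtrl replicate 2 gave -0.12 (adjusted p = 0.039).

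ANKRD1 encodes a nuclear cofactor with ankyrin repeats, best known in stretched muscle. ANKRD1 (chr10:90912096-90921276, minus strand, 9.18 kb) read 182, 151 and 178 CPM in U2OS siCtrl and 116, 125 and 124 CPM in U2OS siINTS11. Every siINTS11 library lay well below every siCtrl library. The fall was 0.52 on the log2 scale (SE 0.0543, adjusted p = 2.85e-08), to 0.700 of the siCtrl level, and none of the other 100 genes of 0.3 to 0.5 reads per base fell as far; their class median was 0.03. Under library totals alone the fall was 0.32 (-0.32, adjusted p = 3.79e-05). In U2OS-AsiSI it read 165, 153 and 174 CPM with siCtrl and 146, 161 and 138 CPM with siINTS11. These groups overlapped in CPM but not in raw counts (4770 to 4873 against 3651 to 4189). The difference was -0.14 (SE 0.053, adjusted p = 0.0198), where the class median was 0.24 and 1 of the other 100 genes lay lower. That call was lost without siCtrl replicate 3 (adjusted p = 0.134) or siINTS11 replicate 3 (0.175) and with a minimum mean count of 50 (-0.09, adjusted p = 0.131), and under library totals alone the value was 0.05 (adjusted p = 0.371), when all genes had a median of 0.22.

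AMOTL2 and AJUBA act on the Hippo pathway itself: angiomotin-like 2 is a junctional scaffold that binds YAP, and the LIM protein AJUBA binds LATS kinases. AMOTL2 (chr3:134355874-134375479, minus strand, 19.6 kb) read 214, 214 and 233 CPM in U2OS-AsiSI siCtrl and 238, 271 and 245 CPM in U2OS-AsiSI siINTS11. The groups were apart, with a rise of 0.19 on the log2 scale (SE 0.05, adjusted p = 0.00118). Raw counts overlapped (6298 to 6846 against 6156 to 7143), and genes of 0.3 to 0.5 reads per base rose by a median of 0.24. The rise was 0.38 under library totals alone. In U2OS it read 242, 207 and 228 CPM with siCtrl and 217, 226 and 218 CPM with siINTS11, overlapping groups with a difference of -0.06 (SE 0.0448, adjusted p = 0.228). Without U2OS siCtrl replicate 2 that difference was -0.11 (adjusted p = 0.0379). AMOTL2 shares 688 bases with RPL39P5 on its strand.

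AJUBA could not be measured over most of its length. Of its 11375 bases (chr14:22971177-22982551, minus strand), 97.4% lie under the transcript AL132780.3 on the same strand, which leaves 293. AJUBA had 24 to 51 reads per library, with U2OS siINTS11 replicate 3 the lowest, and AL132780.3 had 262 to 456. Of 10345 genes lying wholly within another gene on their strand, 92.2% had 0 reads in every library. Many genes had none in any case, since only 28374 to 29834 of all 60583 had reads in a given library. Log2 differences for AJUBA were 0.08 in U2OS-AsiSI (SE 0.177, adjusted p = 0.688) and -0.28 in U2OS (SE 0.205, adjusted p = 0.228), and the library-by-library values overlapped in both lines. AL132780.3 itself was lower in U2OS (-0.24, adjusted p = 0.00336) and did not pass in U2OS-AsiSI (0.07, adjusted p = 0.458). These values are uncertain and say little about AJUBA.

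**Figure D3:**
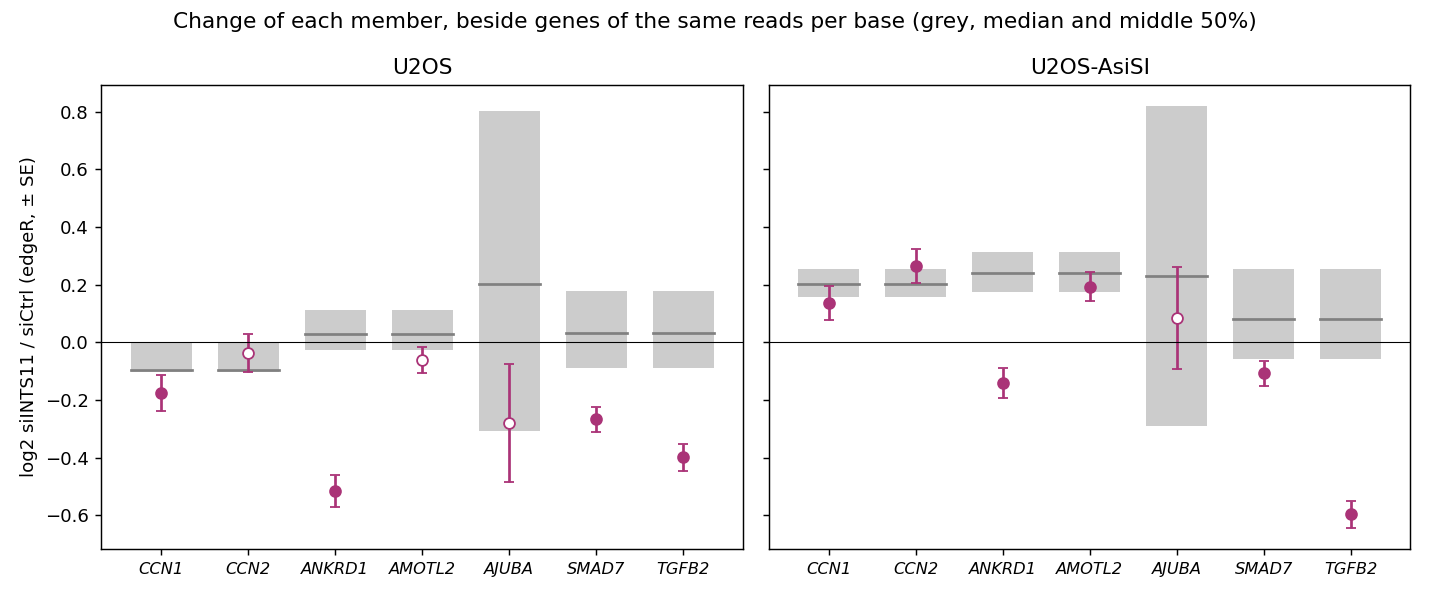
Log2 change with siINTS11 of each member in U2OS (left) and U2OS-AsiSI (right), as edgeR estimates with SE bars, filled where adjusted p was under 0.05; grey boxes give the median and middle 50% of genes over 1 kb in the same class of reads per base. TGFB2 (-0.40 and -0.60), ANKRD1 (-0.52 and -0.14) and SMAD7 (-0.27 and -0.11) lie below their boxes in both panels, as does CCN1 by less (-0.18 and 0.13), whereas CCN2 and AMOTL2 lie in or close to theirs.

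Across the list, 4 of 7 members were lower and 0 higher with siINTS11 in U2OS, where 66.9% of the 20687 genes tested were called (34.5% higher and 32.4% lower). In U2OS-AsiSI 3 were higher and 3 lower, where 68% of 20441 genes were called (35.4% higher and 32.6% lower). The share of members called, 4 or 6 of 7, is near these backgrounds and is not a result about the list. Densely read genes were called higher far more often in U2OS-AsiSI. Of genes over 1 kb with 0.5 or more reads per base, the class of CCN1 and CCN2, 87.5% were called higher there and 0% in U2OS. Of those with 0.3 to 0.5, the class of AMOTL2 and ANKRD1, 89.1% were called higher there and 23.8% in U2OS. Scaled libraries of the 2 groups were apart for 3 members in U2OS (69.4% of all genes) and for 4 in U2OS-AsiSI (71%). The members' median log2 change was -0.27 in U2OS and 0.08 in U2OS-AsiSI, beside 0.02 and 0.03 over all genes. With TMM scaling TGFB2, SMAD7 and ANKRD1 were called lower in both lines, CCN2 and AMOTL2 were called higher in U2OS-AsiSI, and CCN1 was called in opposite directions. Scaling set the split of all genes: 7140 were higher and 6706 lower in U2OS, but 10968 and 3799 under library totals alone, and 7236 and 6657 in U2OS-AsiSI, but 10550 and 4024 under library totals alone. The median of all genes then moved to 0.22 in each line, and 2 members were called higher and 2 lower in U2OS, 4 and 1 in U2OS-AsiSI.

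The lines were compared next, under each siRNA. With siCtrl, TGFB2 was lower in U2OS-AsiSI than in U2OS by 0.22 on the log2 scale (SE 0.0494, adjusted p = 7.36e-04), with no overlap of libraries. SMAD7 was lower by a log2 difference of -0.12 (SE 0.0459, adjusted p = 0.0479), with overlap. The median of their density class was 0.13, and 34 and 90 of the other 1239 genes lay lower. These were 2 of 7 members, where 34.9% of 19935 genes were called (17.8% higher and 17.2% lower). The SMAD7 call was lost when any library but U2OS siCtrl replicate 2 was left out (adjusted p 0.0585 to 0.39), and CCN2, at 0.12, was called without U2OS siCtrl replicate 1 (0.20, adjusted p = 0.0101). With siINTS11, 5 of 7 members differed, where 43.6% of 20802 genes were called (22.2% higher and 21.4% lower). CCN1 was higher in U2OS-AsiSI by 0.30 (SE 0.0511), CCN2 by 0.42 (SE 0.0531), ANKRD1 by 0.32 (SE 0.047) and AMOTL2 by 0.22 (SE 0.0452), with adjusted p from 1.6e-08 to 8.36e-05. For genes of 0.5 or more and of 0.3 to 0.5 reads per base the medians were 0.30 in this comparison. In these classes 100% and 90.1% of genes over 1 kb were called higher. Being called higher thus did not set CCN1, CCN2, ANKRD1 and AMOTL2 apart from other densely read genes. By size of change, CCN2 lay above all 15 others of its class. TGFB2 was lower by 0.42 (SE 0.043, adjusted p = 1.61e-10), below all 1239 other genes of its class, whose median was 0.18. AJUBA, at 0.43 (SE 0.202, adjusted p = 0.0799), passed without U2OS siINTS11 replicate 1 (0.0272) or 2 (0.0324) or U2OS-AsiSI siINTS11 replicate 1 (0.0413).

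A test of the difference itself, over all 12 libraries, asked which members responded to siINTS11 differently in the lines. It called 2 of 7 members, where 3.87% of 21521 genes were called (0.762% higher and 3.1% lower). INTS11 itself was not called by this test (0.25, SE 0.117, adjusted p = 0.235). With siINTS11, however, INTS11 read higher in U2OS-AsiSI than in U2OS (0.37, SE 0.0845, adjusted p = 4.57e-04). The part of the INTS11 level in the differences below was not tested. The fall of TGFB2 was deeper in U2OS-AsiSI by 0.23 on the log2 scale (-0.23, SE 0.067, adjusted p = 0.0438). The fall of ANKRD1 was shallower there by 0.34 (SE 0.0881, adjusted p = 0.032), in a density class whose median difference was 0.18 and in which 97 of the other 100 genes lay below it. Both calls depended on single libraries. The TGFB2 call was kept in 1 of 12 fits that each left out a library, the one without U2OS-AsiSI siCtrl replicate 2, with adjusted p from 0.0449 to 0.151 over the 12. The ANKRD1 call was lost in 7, those without U2OS siCtrl replicate 1, U2OS siINTS11 replicate 1 or 3, U2OS-AsiSI siCtrl replicate 1 or 2, or U2OS-AsiSI siINTS11 replicate 1 or 2 (adjusted p 0.0567 to 0.0911). Differences for the other members were 0.28 for CCN1 (SE 0.11, adjusted p = 0.181), 0.27 for CCN2 (SE 0.114, 0.215), 0.22 for AMOTL2 (SE 0.0719, 0.0791), 0.33 for AJUBA (SE 0.283, 0.579) and 0.13 for SMAD7 (SE 0.0629, 0.279). Class medians were 0.22 for CCN1 and CCN2 and 0.18 for AMOTL2, so these 3 lay close to other densely read genes. They were called without U2OS siCtrl replicate 2, at 0.37, 0.36 and 0.28 (adjusted p 0.0124 to 0.0215), and AMOTL2 also without U2OS-AsiSI siCtrl replicate 3 (0.0456) or siINTS11 replicate 1 (0.0323).

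Other genes of the 2 pathways moved in both directions, and their counts are to be read beside all genes tested (35.4% higher and 32.6% lower in U2OS-AsiSI, 34.5% and 32.4% in U2OS). Among 16 further YAP-TEAD target genes tested, 5 were higher and 9 lower with siINTS11 in U2OS-AsiSI (median -0.20), and 5 were higher and 8 lower in U2OS (median -0.11). Under library totals alone 7 were higher and 4 lower (median -0.01), and 8 were higher and 5 lower (median 0.09). The 4 with the smallest adjusted p were RBMS3, an RNA-binding protein (-0.97 in U2OS-AsiSI and -0.84 in U2OS), NT5E, the ecto-5′-nucleotidase CD73 (2.58 and 3.07), CRIM1 (-0.45 and -0.42) and FJX1 (0.59 and 0.27). NT5E was sparse, with 7 to 15 reads in U2OS siCtrl and 86 to 93 in U2OS siINTS11, and 15 to 25 against 101 to 126 in U2OS-AsiSI. Among 17 further TGF-β/SMAD targets, 8 were higher and 2 lower in U2OS-AsiSI (median 0.19), and 7 were higher and 5 lower in U2OS (median 0.06). Under library totals alone these were 14 and 1 (median 0.38), and 11 and 2 (median 0.26). LDLRAD4, an inhibitor of SMAD phosphorylation, fell (-0.92 and -1.0). SKI, a SMAD corepressor (0.78 and 0.47), TGFBI, a matrix protein (0.74 and 0.50), and SNAI1, a repressor of E-cadherin (0.67 and 0.62), rose in both lines. SKI (0.28, adjusted p = 0.0104) and TGIF1 (-0.25, adjusted p = 0.0392) were also called for the difference between the lines, where 3.87% of all genes were. Such calls for list genes, here and below, were not checked with a library left out.

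The pathway components themselves were mostly lower with TMM scaling, and fewer of them were called lower under library totals alone. Their medians stayed below that of all genes, which was 0.22 in each line under library totals alone. Of 21 Hippo genes, 13 were lower and 1 higher in U2OS-AsiSI (median -0.16), and 16 were lower and 0 higher in U2OS (median -0.23). Under library totals alone, which raise all genes, 7 were lower and 7 higher in U2OS-AsiSI (median 0.03), and 9 were lower and 7 higher in U2OS (median -0.03). AMOT, a YAP-binding angiomotin, fell most surely (-0.94 and -1.10), followed by the kinase MST2, encoded by STK3 (-0.54 and -0.47), by AMOTL1 (-0.44 and -0.56) and by NF2, which encodes merlin (-0.37 and -0.46). YAP1 fell by 0.20 and 0.18 on the log2 scale and its paralogue WWTR1 (TAZ) by 0.33 and 0.32. Of 13 TGF-β pathway genes, 9 were lower and 3 higher in U2OS-AsiSI (median -0.27), and 9 were lower and 2 higher in U2OS (median -0.25). Under library totals alone these were 7 and 4 (median -0.08), and 5 and 4 (median -0.05). TGFBR1, a type I receptor (-0.59 and -0.39), LTBP1, which stores the latent ligand (-0.40 and -0.36), and SMAD4 (-0.44 and -0.31) fell, whereas ENG, the co-receptor endoglin, rose (0.92 and 0.64). TGFB3 fell like TGFB2 (-0.59 and -0.44), and TGFB1, the remaining ligand, rose in U2OS-AsiSI (0.30, adjusted p = 1.33e-06) and did not pass in U2OS (0.08, adjusted p = 0.111). TGFBR1 differed between the lines in the same direction as TGFB2 (-0.24, adjusted p = 0.0284). YAP1, WWTR1, TGFB1 and TGFB3, as well as TGIF1 above, were named after their values were seen.

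The AP-1 genes, whose products bind DNA beside TEAD at many YAP-bound sites, had medians above 0 in both lines under every scaling run. All 8 AP-1 subunit genes tested were higher in U2OS-AsiSI (median 0.43, and 6 with median-of-ratios factors), and 4 were higher and 1 lower in U2OS (median 0.32). These genes were short and densely read, with a median of 0.271 reads per base beside 0.0166 over all genes tested. Genes under 5 kb with 0.1 to 0.3 reads per base had median changes of 0.30 in U2OS-AsiSI and 0.16 in U2OS. The part of density in the AP-1 values was not tested. FOS rose by 0.89 and 1.0, FOSB by 1.03 and 0.68, JUNB by 0.63 and 0.54 and FOSL1 by 0.55 and 0.59. FOSL2 was called in opposite directions with TMM scaling (0.13 and -0.24) and differed between the lines (0.34, adjusted p = 0.00722; it was named after its values were seen). Of the 5 EGR and NR4A genes tested, 3 were higher in each line and 1 was lower in U2OS. EGR1 (0.50 and 0.31), NR4A3 (0.68 and 0.54) and NR4A2 (0.35 and 0.41) rose, and EGR2 did not pass (0.43, adjusted p = 0.0616, and 0.02, adjusted p = 0.965). NR4A1, named after its values were seen, did not pass in U2OS-AsiSI (-0.10, adjusted p = 0.153) and was lower in U2OS (-0.26, adjusted p = 0.00125). Of the other CCN genes, CCN3 rose (0.50 and 0.88), and CCN4 was lower in U2OS-AsiSI (-0.38) and higher in U2OS (0.25), a difference of -0.67 between the lines (SE 0.126, adjusted p = 0.00271).

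Gene length moved with these directions. The median span was 120.1 kb for the Hippo list, 87.5 kb for the TGF-β pathway, 56.9 kb for the YAP-TEAD targets, 12.1 kb for the TGF-β targets and 5.3 kb for the AP-1 genes, beside 31.5 kb over all genes tested. In U2OS-AsiSI the median change was 0.32 over 3041 genes under 5 kb and -0.14 over 4959 genes of 50 to 150 kb, and in U2OS it was 0.21 and -0.13. The part of length in the lists was not tested. Of the genes in the lists, FJX1, GADD45A, PMEPA1, ID1, BHLHE40 and JUN had 0.3 or more reads per base.

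**Figure D4:**
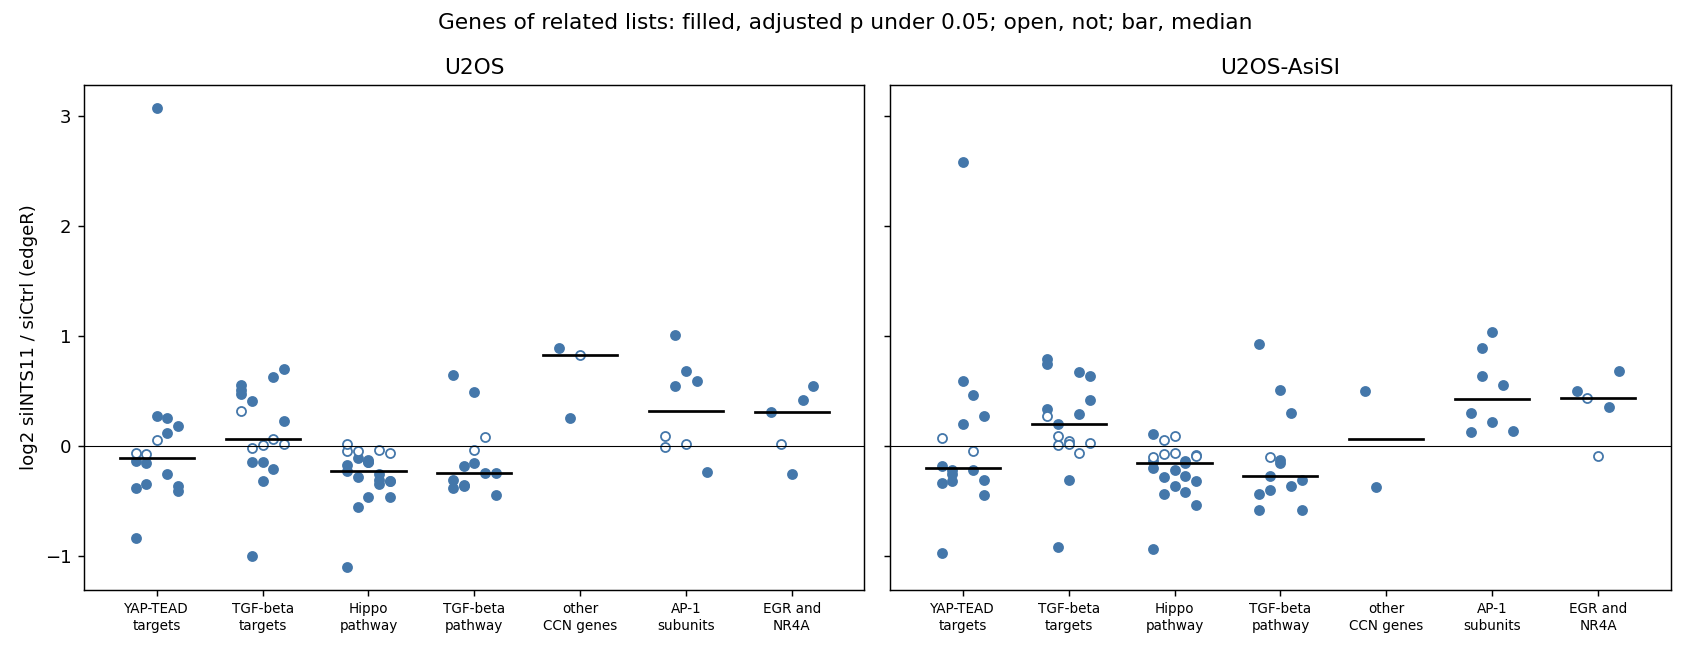
Log2 change with siINTS11 (edgeR) of the genes in 7 related lists in U2OS (left) and U2OS-AsiSI (right); each point is a gene, filled where adjusted p was under 0.05, and the bar is the list's median. The Hippo (-0.23 and -0.16) and TGF-β pathway (-0.25 and -0.27) medians lie below 0 with TMM scaling and the AP-1 medians (0.32 and 0.43) above it, with NT5E as the isolated high point.

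Along the chromosome, the genes nearest to a member moved both with and against it. ENPP1, on the other strand 53.0 kb from the end of CCN2, fell by 0.40 in U2OS-AsiSI while CCN2 rose. AL133346.1, which overlaps the start of CCN2 by 427 bases on the other strand, rose (0.77, and 0.86 in U2OS). In U2OS-AsiSI, RPP30 (-0.23) and PCGF5 (-0.45), on either side of ANKRD1, fell, as did CTIF (-0.39) and DYM (-0.81) around SMAD7, and in U2OS these 4 fell as well (-0.15, -0.42, -0.40 and -0.67). C1orf143, 14.6 kb downstream of TGFB2 on the same strand, rose by 0.38 in U2OS-AsiSI (SE 0.0684, adjusted p = 1.4e-05), where TGFB2 fell. In U2OS its difference was 0.13 (adjusted p = 0.0538). TGFB2-AS1 did not pass in U2OS-AsiSI (-0.03, adjusted p = 0.859) or in U2OS (0.22, adjusted p = 0.131). Beside CCN1, ZNHIT6 fell (-0.20 in U2OS-AsiSI and -0.12 in U2OS) and AC092807.3 did not pass (0.46, adjusted p = 0.255, and 0.54, adjusted p = 0.145). Near AMOTL2, ANAPC13 rose (0.32 and 0.25), and RPL39P5 did not pass in U2OS-AsiSI (0.03, adjusted p = 0.743) and fell in U2OS (-0.25, adjusted p = 0.0015). AL132780.2, beside AJUBA, did not pass in U2OS-AsiSI (-0.07, adjusted p = 0.399) or in U2OS (0.08, adjusted p = 0.396).

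Some members went together over the 12 libraries. The log2 CPM of CCN1, CCN2 and AMOTL2 went together (Pearson r of 0.883 for CCN1 and CCN2, 0.901 for CCN1 and AMOTL2, 0.927 for CCN2 and AMOTL2), while SMAD7 went with ANKRD1 (0.785) and TGFB2 (0.773), and CCN2 went against TGFB2 (-0.653). ANKRD1 went with CCN1 (0.647) more closely than with TGFB2 (0.421), and AJUBA was nearest to CCN1 (0.660). The 12 points share libraries, groups and depth, so these are descriptions. Of 13556 candidates, the genes most like CCN1 were the mitochondrial MT-ATP6 (0.977) and MT-ND4L (0.972). Those most like CCN2 were TNFRSF12A (0.993) and RPL13A (0.991). AMOTL2 was most like H2AC21 (0.984) and JUN (0.980). Of these 6, all but TNFRSF12A had over 0.4 reads per base, from 0.459 (RPL13A) to 0.646 (MT-ND4L). TGFB2 was most like 2 sparser long genes, SERTAD2 (0.992, 0.052 reads per base) and REPS2 (0.992, 0.00287 reads per base). SMAD7 was most like NDST1 (0.971) and PLEKHG3 (0.952), ANKRD1 like CDV3 (0.972) and POTEF (0.938), and AJUBA like COX7C (0.817) and TUG1 (0.814).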

How the data were processed

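Nascent RNA from 12 libraries in 4 groups of 3, grouped and numbered by their titles, was analysed from deposited raw counts per gene. Per the submitters' processing notes the tools included Trimmomatic 0.36, STAR 2.7, featureCounts and deepTools, with build hg38; the counting options, strand mode, annotation release and treatment of duplicates are not given in the sources used here. The deposited counts cover 60583 genes, and for 60536 the length equals the whole span, introns included. Totals ran from 20704611 to 38065726 counts per library, and replicates varied 2.11 to 3.1 times more than counting noise (chi-square per degree of freedom). SEs cover the spread between libraries only, since reads that carry no molecular identifiers may be copies of one molecule. Yeast spike-in reads were not used here, so all values are relative within a library.

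Tests were edgeR 4.0.16 in R 4.3.3 (filterByExpr, TMM scaling, robust quasi-likelihood fits, two-sided) on the 6 libraries compared, or all 12 for the difference between lines, with Benjamini-Hochberg adjustment over all genes tested and a threshold of 0.05. CPM values were computed here with TMM factors. Scripts were tested on simulated data. Alternatives were median-of-ratios factors, library totals alone, TMM from genes under 0.1 reads per base, no count filter, a minimum mean count of 50, a replicate block, DESeq2 1.42.0, thinning to 20704611 counts, all 12 libraries in one fit, and each library left out. An occupancy transform of the counts, -L ln(1 - n/L) for n reads on a span of L bases with n/L held at 0.99 or less, and the scaling alternatives for the pathway lists were chosen after seeing the data. Named genes were all members, INTS11, up to 4 genes per list with the smallest adjusted p in U2OS-AsiSI, the nearest tested gene on each side of a member, and the 2 genes with the highest Pearson r to each member among those with a mean count of at least 100. The members and lists were chosen with earlier results of these data known. Figures were drawn with matplotlib 3.10.9.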

Additional observations from a re-analysis of the deposited data

Results flagged for a closer look

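The difference between the lines in the response to siINTS11, tested as an interaction over all 12 libraries with edgeR, passed for 2 members. For TGFB2 it was -0.23 on the log2 scale (SE 0.067, adjusted p = 0.0438), a deeper fall in U2OS-AsiSI in which all 3 libraries labelled siINTS11 read 486 to 496 CPM. For ANKRD1 it was 0.34 (SE 0.0881, adjusted p = 0.032), a shallower fall in U2OS-AsiSI. Leaving out single libraries gave -0.26 to -0.18 for TGFB2, which passed in 1 of 12 such fits (without U2OS-AsiSI siCtrl replicate 2), and 0.29 to 0.42 for ANKRD1, which passed in 5. The libraries of U2OS-AsiSI siINTS11 were also the smallest on average, and the part of depth in the ANKRD1 difference was not tested. INTS11 read higher in them than in U2OS siINTS11 (0.37, edgeR adjusted p = 4.57e-04), and its part in both differences was not tested.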

How the results depend on the processing

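Of 589 values recomputed under alternatives, 491 kept their direction and side of the threshold, 58 lost the call, 20 gained it and 20 changed sign. The falls of TGFB2 in both lines and of ANKRD1 in U2OS, and the rises of CCN2 and AMOTL2 in U2OS-AsiSI, passed under every alternative run. For the rises this says little about the members themselves. In U2OS-AsiSI 87.5% of genes over 1 kb in the density class of CCN2 were called higher, and 89.1% in that of AMOTL2. None of the alternatives compares a member with its class, so they cannot separate these rises from those of other densely read genes. The number of members called for the lines under siCtrl, 2 of 7, was 1 with library totals alone, 1 with TMM from sparse genes and 1 to 2 with a library left out. The number called for the difference between lines, also 2, was 1 with median-of-ratios factors, 1 with library totals alone, 0 with TMM from sparse genes, 4 with no count filter, 1 after thinning, 4 after the occupancy transform (chosen after seeing the data) and 0 to 4 with a library left out; the cause was not tested. With a library left out, 4 to 5 members were called in U2OS-AsiSI, 3 to 6 in U2OS and 5 to 6 for the lines under siINTS11. No label says that replicate numbers pair the libraries. Correlations of deviations ran from -0.173 to 0.223 for same-number libraries over 4 comparisons and from -0.162 to 0.181 for the others, which cannot settle whether they pair. With the replicate block 1 member was called for the lines under siCtrl and 1 for the difference between lines. Over all genes, the difference between lines called 832 genes (164 higher and 668 lower), 447 with median-of-ratios factors (177 and 270), 423 with DESeq2, 531 with the block, and 286 to 946 with a library left out: 286 to 502 without any library other than U2OS siCtrl replicate 2, U2OS-AsiSI siCtrl replicate 3 or U2OS-AsiSI siINTS11 replicate 1. Its split was 379 and 291 with no count filter, and a minimum mean count of 50 gave 441 and 217. For the lines, library totals alone gave 4921 higher and 2376 lower under siCtrl, against 3542 and 3421, and 5645 and 3344 under siINTS11, against 4624 and 4444. Sign changes came with library totals alone, with some other settings and with single libraries left out. Library totals alone move the median of all genes to 0.22 for siINTS11. They gave ANKRD1 0.0487 and SMAD7 0.083 (adjusted p = 0.0459) in U2OS-AsiSI, and CCN1 0.024, CCN2 0.16 and AMOTL2 0.14 in U2OS. For the lines under siCtrl they gave CCN1 0.0493, ANKRD1 0.0063 and AMOTL2 0.0288. CCN2 in U2OS was 0.0054 with a mean count of at least 50, and CCN1 for the lines under siCtrl was 0.0029 with TMM from sparse genes and 0.0043 after thinning. With a library left out, ranges that crossed 0 were -0.0752 to 0.179 for AJUBA in U2OS-AsiSI, -0.12 to 0.042 for CCN2 in U2OS, and, for the lines under siCtrl, -0.0948 to 0.0644 for CCN1, -0.127 to 0.0042 for ANKRD1, -0.0851 to 0.0285 for AMOTL2 and -0.014 to 0.177 for AJUBA. Calls for CCN1 in U2OS-AsiSI were also lost with median-of-ratios factors, the block, DESeq2 and the 12-library fit (adjusted p 0.0938 to 0.162), that of SMAD7 in U2OS with library totals alone (0.106). After the occupancy transform, slopes of count on total were still 0.349 for CCN1 and 0.253 for CCN2, so it did not remove the flatness of dense genes; depth limits what can be said of CCN1, CCN2, ANKRD1 and AMOTL2, whose counts followed it with slopes of 0.158 to 0.461.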
